A study of Mus musculus with 22 samples.

Results

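The 32 genes described here make, control, move and export cholesterol. They were taken from a list of mouse symbols, and each matched 1 row among the 55414 gene rows of a bulk RNA-seq count table. The list holds 20 enzymes of sterol synthesis, 4 genes of SREBP2 control, 3 of sterol transfer and lysosomal exit, and 5 of LXR signalling and efflux, and it does not hold every gene of the pathway. Fibroblasts came from the back skin of mice that had all been operated on. EXP mice had a hydrogel expander placed under the skin to stretch it, and CTRL mice had the operation alone. The 22 libraries were 4 CTRL and 5 EXP from day 1, 3 CTRL and 3 EXP from day 2, and 4 CTRL and 3 EXP from day 4. The sort removed cells that carried CD31, CD45, CD117 or EpCAM, and it kept living cells with both CD34 and PDGFRα on their surface. Strain, sex and age are not given in the labels used here. The labels do not tie each library to 1 animal, so p-values measure only the spread between these libraries, which may be technical.

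Cells build cholesterol from acetyl-CoA through mevalonate, isoprenoid diphosphates, squalene and lanosterol. SREBP2, encoded by Srebf2, is held in the endoplasmic reticulum by Scap and the Insig proteins when sterol is plentiful, and is released to raise transcription of the synthesis genes when sterol is low. The LXR receptors Nr1h2 and Nr1h3 respond to oxysterols and raise transcription of exporters such as Abca1 and Abcg1 and of Mylip, which marks lipoprotein receptors for degradation.

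All 20 synthesis genes were measured, and those called were all higher in EXP. At an adjusted p under 0.05 in edgeR's quasi-likelihood test, 12 were called higher on day 1, 16 on day 2 and 15 on day 4, and 0 were called lower on any day. At an unadjusted p under 0.05, 0 of them were lower on any day as well. The median log2 fold change of the 20 genes was 1.09, 2.11 and 1.45, beside 0.02, 0.02 and 0.03 over the 17554 genes tested. Over all 32 members, 15 were called higher on day 1, 19 on day 2 and 16 on day 4, where 13.9%, 7.72% and 12.8% of all genes tested were called higher. The counts of members called lower were 0, 2 and 1, where 14.7%, 5.71% and 9.66% of all genes were called lower. Without EXP replicate 2 of day 4, 10 of the 16 calls of that day were left. On day 1, 3 of the 32 were lower at an unadjusted p under 0.05, and DESeq2 called 0 lower. Of the 32, 12 were called higher on all 3 days, beside 2.5% of all genes: Acat2, Acat3, Hmgcs1, Idi1, Fdps, Fdft1, Sqle, Lss, Cyp51, Msmo1, Hsd17b7 and Stard4. The synthesis, SREBP2 and efflux genes are described below in the order of their roles, and CPM are counts scaled to a common library total after TMM adjustment. Values of single libraries are given in the order of their replicate numbers. In bulk RNA, fewer cells of a type and less RNA per cell cannot be told apart.

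**Figure D1:**
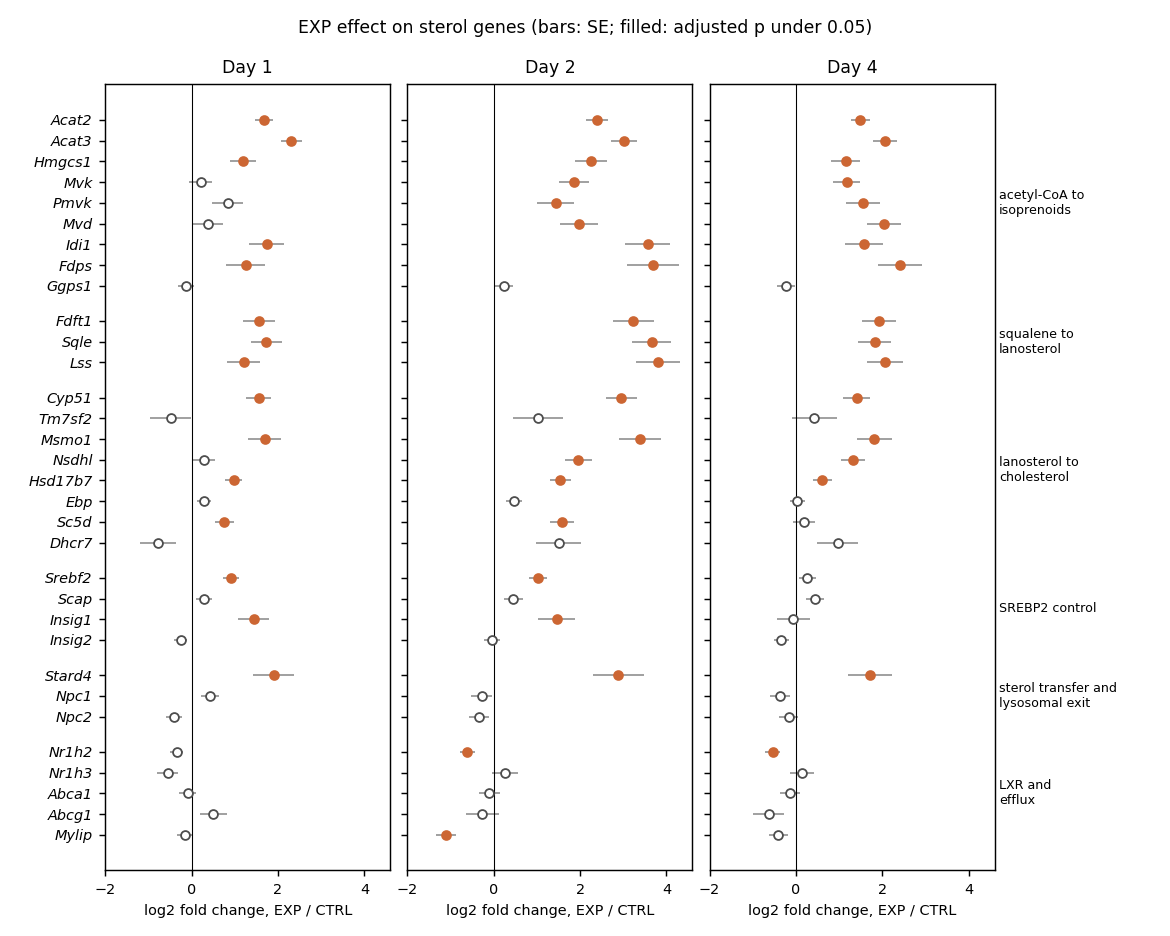
Log2 fold change of EXP over CTRL for each of the 32 genes (rows, grouped by role) on days 1, 2 and 4 (panels). Points are estimates, bars are SE, and filled points passed an adjusted p under 0.05. Points of the enzymes from acetyl-CoA to lanosterol sit right of 0 on day 2, while on that day those of the LXR group sit left of 0 apart from Nr1h3.

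The libraries had 21461294 to 30210204 counts. They fell into a lower and a higher group on 192 genes that followed Rnf10 across libraries, with mean log2 CPM of at most 4.13 on one side and at least 4.83 on the other. The high side held 7 libraries, which were 3 of the 4 CTRL and 2 of the 5 EXP libraries of day 1 and 2 of the 4 CTRL libraries of day 4. The split was found in the data and is no label of the study, and what it stands for was not tested. Summed CPM of 5 markers of sebocytes, gland cells that make much lipid, was at most 10.7 in any library. Of these, Elovl3 was called higher in EXP on day 1 and Mc5r on day 4. The 6 keratinocyte markers summed to at most 40.2 CPM in any library. In CTRL of day 1 they summed to 7.29 to 40.2 CPM and in EXP to 2.16 to 13.5 CPM, with Krt10 called lower in EXP. Among pericyte and smooth muscle markers, Des was called lower in EXP on day 2, and no melanocyte or Schwann marker was called. Summed CPM of 7 haematopoietic markers was higher in EXP on each day (4.33 to 12.9 in CTRL and 14.3 to 29.99 in EXP on day 1, 6.82 to 11.2 and 15.7 to 32.7 on day 2, 2.09 to 12.6 and 19.99 to 37.5 on day 4). Of these, 5 were tested and 2 were called higher in EXP on each day, S100a8 and Cd68 on days 1 and 2 and S100a8 and Cd3e on day 4. S100a8 was at 0 in all CTRL libraries of day 1, Adgre1 in all EXP libraries of day 1 and all CTRL libraries of days 2 and 4, and Ptprc in all CTRL libraries of day 4. Summed CPM of 6 adipocyte markers was 1.90 to 350.0 in EXP and at most 1.11 in CTRL on day 4, where all 5 tested were called higher (Adipoq, Plin1, Cidec, Cfd and Retn). On day 2 it was 2.46 to 54.8 in EXP and at most 2.51 in CTRL, with Cidec called, and on day 1 at most 0.349 in EXP and 12.9 in CTRL, with 0 called. Plin1, Lep and Retn were at 0 in all CTRL libraries of days 2 and 4. Summed CPM of 4 endothelial markers was 0.168 to 2.23 in CTRL and 2.28 to 8.02 in EXP on day 4, with Kdr and Emcn called higher, and 0 to 0.522 and 0.669 to 2.18 on day 2, with Kdr called. On day 1 it was 1.04 to 4.14 in CTRL and 0.477 to 2.55 in EXP, with 0 called. Summed CPM of 7 fibroblast markers was lower in EXP on each day (138224 to 191398 in CTRL and 73794 to 117418 in EXP on day 1). Col1a1 and Col1a2 made up most of this sum. Col1a1 was called lower on all 3 days, Col1a2 on days 1 and 2, Dcn on days 2 and 4, and Lum on day 4. Dpt was not called on any day. The sort marker Cd34 was lower in EXP on days 1 and 2 (log2 fold change -1.74 and -2.07, edgeR adjusted p = 8.10e-04 and 0.00379) and Pdgfra was higher on all 3 days (0.84, 1.71 and 0.79). The part of these cell type markers in the sterol results was not tested.

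Promoter stretches of 5 enzymes that rose on all 3 days, Hmgcs1, Idi1, Lss, Cyp51 and Msmo1, are shown as examples. That of Abca1, which did not pass the test on any day, is shown beside them. Acat2 and Hsd17b7, which also rose on all 3 days and have a RefSeq promoter, are not printed. The stretches are the 150 bases before each gene's start in RefSeq on GRCm38.p6, written 5′ to 3′ on the gene's strand. The submitters' processing notes name another build, mm39, for the table, so these positions are not those of the table. Capitals mark the letters of 3 motifs searched on both strands: TCACNCCAC, the core of a sterol regulatory element, CCAAT, and GGGCGG, the GC box.
Hmgcs1, chr13:119690201-119690350, + strand: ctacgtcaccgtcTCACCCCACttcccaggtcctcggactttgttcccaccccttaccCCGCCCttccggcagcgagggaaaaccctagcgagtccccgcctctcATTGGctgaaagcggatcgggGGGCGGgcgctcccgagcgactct
Idi1, chr13:8885456-8885605, + strand: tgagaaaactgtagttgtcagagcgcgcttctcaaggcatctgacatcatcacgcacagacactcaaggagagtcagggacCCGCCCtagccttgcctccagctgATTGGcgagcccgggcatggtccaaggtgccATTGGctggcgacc
Lss, chr10:76531455-76531604, + strand: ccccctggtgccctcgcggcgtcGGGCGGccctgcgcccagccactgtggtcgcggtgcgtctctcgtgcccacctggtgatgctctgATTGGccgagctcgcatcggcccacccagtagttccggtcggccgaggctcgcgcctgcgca
Cyp51, chr5:4104698-4104847, - strand: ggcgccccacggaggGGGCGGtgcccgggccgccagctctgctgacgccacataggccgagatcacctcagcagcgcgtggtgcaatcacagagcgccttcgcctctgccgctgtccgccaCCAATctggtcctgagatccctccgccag
Msmo1, chr8:64733579-64733728, - strand: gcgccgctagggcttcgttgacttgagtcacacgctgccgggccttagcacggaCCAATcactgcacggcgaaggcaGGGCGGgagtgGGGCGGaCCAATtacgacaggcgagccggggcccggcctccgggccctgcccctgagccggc
Abca1, chr4:53159896-53160045, - strand: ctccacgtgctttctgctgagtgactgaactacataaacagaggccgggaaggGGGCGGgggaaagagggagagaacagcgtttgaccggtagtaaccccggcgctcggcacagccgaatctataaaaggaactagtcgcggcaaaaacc
RefSeq promoters were found for 25 of the 32 members. In the 250 bases before the start, TCACNCCAC was present in 1 of the 25 (Hmgcs1) and in 1.225% of 27025 genes. CCAAT was in 20 of the 25 and in 37.495% of all genes, and GGGCGG in 21 of the 25 and in 35.356%. The 25 include 7 members called higher on all 3 days, of which 6 had CCAAT and 7 had GGGCGG. Members without CCAAT were Acat2, Abca1, Scap, Nr1h2 and Nr1h3. Ebp, Tm7sf2, Dhcr7, Ggps1, Insig2 and Npc2, not called on any day, had it, as did Mylip, called lower on day 2. AGGTCA repeated in the same direction with 4 letters between, the spacing bound by LXR, was in 0 of the 25 and in 0.015% of all genes. Such a match is a description of letters and not a site. Only these exact letters were searched (N is any base), and sites with other letters were not looked for. A missing match therefore does not show that a site is absent. The exact AGGTCA repeat was so rare in all genes that 0 of the 25 says nothing on LXR sites.

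Of the 9 genes from acetyl-CoA to the isoprenoid diphosphates, 5 were called higher on day 1, 8 on day 2 and 8 on day 4, with 0 lower. Ggps1, which makes geranylgeranyl diphosphate and stands on a side branch, was the one not called on days 2 and 4. Hmgcs1 (ENSMUSG00000093930, chromosome 13) makes HMG-CoA from acetoacetyl-CoA and acetyl-CoA, and was the highest of this group in CPM. On day 1, Hmgcs1 was at 35.8, 41.8, 70.7 and 93.9 CPM in the CTRL libraries and at 124, 145, 205, 115 and 104 CPM in the EXP libraries. On day 2, Hmgcs1 was at 38.8, 33.9 and 40.9 CPM in the CTRL libraries and at 225, 189 and 127 CPM in the EXP libraries. On day 4, Hmgcs1 was at 120.1, 78.2, 57.1 and 62.8 CPM in the CTRL libraries and at 125, 267 and 140.0 CPM in the EXP libraries. On each day every EXP library was above every CTRL library, and on days 1 and 4 the highest CTRL library came close to the lowest EXP library. This gave log2 fold changes for days 1, 2 and 4 of 1.20 ± 0.30, 2.25 ± 0.38 and 1.16 ± 0.34 (SE; edgeR adjusted p = 0.00591, 8.41e-04 and 0.0188). The day 4 call was lost with the split as a covariate, in a fit of day 4 alone, and without EXP replicate 2, CTRL replicate 3 or CTRL replicate 4.

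Acat2 (ENSMUSG00000023832, chromosome 17) and Acat3 (ENSMUSG00000062480, same chromosome) join acetyl-CoA units in the cytosol. They are close paralogs, so reads could be split between them, and 23.5% of the exon bases of Acat3 overlap Tcp1 on the opposite strand. On day 1, Acat2 was at 12.2, 15.04, 17.8 and 22.2 CPM in the CTRL libraries and at 55.8, 48.9, 58.1, 55.1 and 52.6 CPM in the EXP libraries. On day 2, Acat2 was at 14.2, 13.2 and 14.1 CPM in the CTRL libraries and at 103, 61.8 and 52.5 CPM in the EXP libraries. On day 4, Acat2 was at 21.9, 22.3, 13.6 and 15.7 CPM in the CTRL libraries and at 57.3, 56.3 and 41.4 CPM in the EXP libraries. The arms were apart on each day with no value between them. In the fit this came to log2 fold changes for days 1, 2 and 4 of 1.68 ± 0.21, 2.38 ± 0.25 and 1.49 ± 0.23 (SE; edgeR adjusted p = 1.40e-05, 1.40e-05 and 3.21e-04). On day 1, Acat3 was at 4.28, 4.19, 4.76 and 6.86 CPM in the CTRL libraries and at 29.9, 19.1, 32.1, 22.4 and 20.998 CPM in the EXP libraries. On day 2, Acat3 was at 3.98, 3.13 and 3.55 CPM in the CTRL libraries and at 42.6, 19.9 and 23.8 CPM in the EXP libraries. On day 4, Acat3 was at 5.03, 6.003, 3.81 and 3.68 CPM in the CTRL libraries and at 24.4, 16.7 and 17.03 CPM in the EXP libraries. Every CTRL library was below 7 CPM and every EXP library above 16 CPM. EXP over CTRL stood at log2 fold changes for days 1, 2 and 4 of 2.31 ± 0.25, 3.02 ± 0.31 and 2.06 ± 0.27 (SE; edgeR adjusted p = 5.34e-06, 9.54e-06 and 1.39e-04).

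Idi1 (ENSMUSG00000058258, chromosome 13) interconverts the 2 isoprenoid diphosphate isomers. On day 1, Idi1 was at 5.11, 8.17, 11.6 and 20.8 CPM in the CTRL libraries and at 36.5, 40.4, 57.6, 35.3 and 21.4 CPM in the EXP libraries. On day 2, Idi1 was at 4.83, 4.44 and 4.89 CPM in the CTRL libraries and at 73.1, 53.9 and 40.7 CPM in the EXP libraries. On day 4, Idi1 was at 27.4, 16.9, 10.3 and 9.17 CPM in the CTRL libraries and at 29.1, 77.2 and 36.7 CPM in the EXP libraries. The day 2 CTRL libraries were all near 5 CPM, below every other CTRL library, and CTRL replicate 1 of day 4 was just below the lowest EXP library of its day. The model gave log2 fold changes for days 1, 2 and 4 of 1.74 ± 0.40, 3.56 ± 0.52 and 1.58 ± 0.44 (SE; edgeR adjusted p = 0.00321, 3.32e-04 and 0.0152). The day 4 call was lost in a fit of day 4 alone and without EXP replicate 2 of that day.

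The other members of this group are Fdps, Mvk, Pmvk, Mvd and Ggps1. Fdps, which makes farnesyl diphosphate, had a mean of 0.350 ± 0.143 CPM in CTRL and 4.62 ± 2.08 CPM in EXP on day 2 (SD), with log2 fold changes of 1.25, 3.69 and 2.42 over the 3 days. Its day 1 groups overlapped and that call (edgeR adjusted p = 0.0413) was lost without any 1 of CTRL replicates 1, 2 and 3 or EXP replicates 3 and 4, with no filter on low counts, with the split as a covariate, and within the high side of the split. Of its exon bases, 26.7% overlap Gm43738 on the same strand, so its counts are uncertain. Mvk, Pmvk and Mvd, the kinases and decarboxylase that carry mevalonate to the first isoprenoid, were not called on day 1 (log2 fold changes 0.21, 0.83 and 0.39). They were called on day 2 (1.85, 1.43 and 1.98) and on day 4 (1.18, 1.56 and 2.04). The Pmvk call of day 2 (edgeR adjusted p = 0.0304) was lost without any 1 of the 3 CTRL libraries or EXP replicates 1 and 2. The Mvk and Pmvk calls of day 4 were lost without EXP replicate 2 of that day. Ggps1 stayed within 19.2 to 27.5 CPM in day 1 CTRL and 19.6 to 24.7 CPM in day 1 EXP, with log2 fold changes between -0.23 and 0.23.

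**Figure D2:**
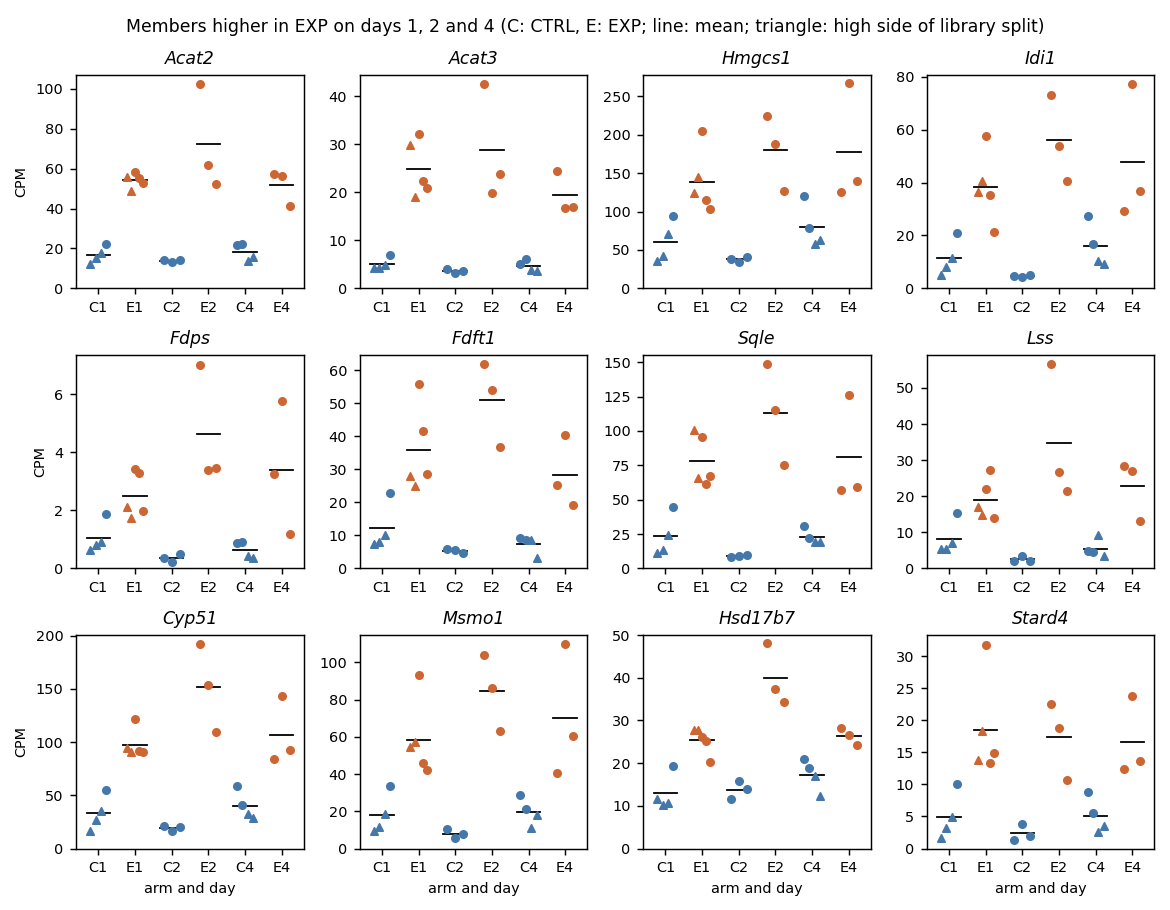
CPM in each of the 22 libraries for the 12 genes called higher in EXP on all 3 days (vertical axes from 0, 1 gene a panel). Blue points are CTRL, orange points are EXP, black lines are group means, and triangles are libraries on the high side of the split. On day 2 all EXP points are above all CTRL points in each of the 12 panels.

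The 3 enzymes from squalene to lanosterol were called higher on every day, and they had among the largest differences on day 2 (log2 3.24 to 3.80). Fdft1 (squalene synthase, ENSMUSG00000021273, chromosome 14) commits isoprenoids to sterols, Sqle (squalene epoxidase, ENSMUSG00000022351, chromosome 15) adds oxygen to squalene, and Lss (lanosterol synthase, ENSMUSG00000033105, chromosome 10) closes the rings. On day 1, Sqle was at 11.2, 13.7, 24.3 and 44.9 CPM in the CTRL libraries and at 101, 65.7, 95.8, 61.1 and 67.5 CPM in the EXP libraries. On day 2, Sqle was at 8.16, 8.88 and 9.70 CPM in the CTRL libraries and at 149, 115 and 74.96 CPM in the EXP libraries. On day 4, Sqle was at 30.7, 22.3, 19.2 and 19.04 CPM in the CTRL libraries and at 57.1, 126 and 59.1 CPM in the EXP libraries. On day 2 the CTRL libraries were all below 10 CPM and every EXP library was far above them. These values gave log2 fold changes for days 1, 2 and 4 of 1.73 ± 0.35, 3.66 ± 0.45 and 1.83 ± 0.38 (SE; edgeR adjusted p = 0.00106, 7.78e-05 and 0.00313). On day 1, Fdft1 was at 7.37, 8.13, 10.1 and 22.9 CPM in the CTRL libraries and at 28.04, 24.9, 55.9, 41.6 and 28.5 CPM in the EXP libraries. On day 2, Fdft1 was at 5.97, 5.59 and 4.63 CPM in the CTRL libraries and at 61.7, 54.03 and 36.7 CPM in the EXP libraries. On day 4, Fdft1 was at 9.18, 8.66, 8.63 and 3.11 CPM in the CTRL libraries and at 25.2, 40.4 and 19.1 CPM in the EXP libraries. CTRL replicate 4 of day 1 was close to the lowest EXP library of that day, and on the other days the arms were far apart. The fit gave log2 fold changes for days 1, 2 and 4 of 1.56 ± 0.36, 3.24 ± 0.46 and 1.93 ± 0.40 (SE; edgeR adjusted p = 0.00307, 2.44e-04 and 0.00300). Of the exon bases of Fdft1, 18.3% overlap Ctsb on the opposite strand.

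For Lss, the groups overlapped on day 1 and were apart on days 2 and 4. On day 1, Lss was at 5.40, 5.38, 7.05 and 15.2 CPM in the CTRL libraries and at 16.97, 14.9, 21.996, 27.4 and 13.999 CPM in the EXP libraries. On day 2, Lss was at 2.04, 3.39 and 2.07 CPM in the CTRL libraries and at 56.5, 26.7 and 21.5 CPM in the EXP libraries. On day 4, Lss was at 4.93, 4.50, 9.13 and 3.33 CPM in the CTRL libraries and at 28.4, 27.1 and 13.03 CPM in the EXP libraries. CTRL replicate 4 of day 1 lay above EXP replicates 2 and 5 of that day. In the fit this came to log2 fold changes for days 1, 2 and 4 of 1.20 ± 0.38, 3.80 ± 0.50 and 2.06 ± 0.42 (SE; edgeR adjusted p = 0.0207, 1.31e-04 and 0.00276). The day 1 call was lost without CTRL replicate 1, 2 or 3 or EXP replicate 4, and with no filter on low counts.

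Of the 8 genes from lanosterol to cholesterol, 4 were called higher on day 1 (Cyp51, Msmo1, Hsd17b7 and Sc5d), 5 on day 2 (the same 4 and Nsdhl) and 4 on day 4 (Cyp51, Msmo1, Hsd17b7 and Nsdhl). Cyp51 (ENSMUSG00000001467, chromosome 5) removes a methyl group from lanosterol. On day 1, Cyp51 was at 16.7, 26.7, 35.1 and 55.2 CPM in the CTRL libraries and at 94.2, 90.6, 122, 91.5 and 90.6 CPM in the EXP libraries. On day 2, Cyp51 was at 21.4, 16.8 and 20.4 CPM in the CTRL libraries and at 192, 154 and 110.0 CPM in the EXP libraries. On day 4, Cyp51 was at 58.7, 41.03, 32.6 and 29.03 CPM in the CTRL libraries and at 84.3, 144 and 92.6 CPM in the EXP libraries. All CTRL libraries were below 60 CPM and all EXP libraries above 80 CPM. EXP over CTRL stood at log2 fold changes for days 1, 2 and 4 of 1.55 ± 0.28, 2.96 ± 0.35 and 1.41 ± 0.30 (SE; edgeR adjusted p = 3.94e-04, 4.62e-05 and 0.00378).

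Msmo1 (ENSMUSG00000031604, chromosome 8) oxidises methyl groups that the next steps remove. On day 1, Msmo1 was at 9.47, 11.3, 18.4 and 33.4 CPM in the CTRL libraries and at 54.3, 57.4, 92.9, 46.1 and 41.96 CPM in the EXP libraries. On day 2, Msmo1 was at 10.5, 5.85 and 7.81 CPM in the CTRL libraries and at 104, 86.4 and 63.3 CPM in the EXP libraries. On day 4, Msmo1 was at 29.001, 21.1, 11.2 and 18.3 CPM in the CTRL libraries and at 40.5, 109.6 and 60.5 CPM in the EXP libraries. The arms did not overlap on any day. The model gave log2 fold changes for days 1, 2 and 4 of 1.69 ± 0.38, 3.39 ± 0.48 and 1.82 ± 0.41 (SE; edgeR adjusted p = 0.00238, 2.44e-04 and 0.00494). Hsd17b7 (ENSMUSG00000026675, chromosome 1) reduces the keto group that is left. On day 1, Hsd17b7 was at 11.6, 10.2, 10.6 and 19.2 CPM in the CTRL libraries and at 27.8, 27.7, 26.1, 25.3 and 20.3 CPM in the EXP libraries. On day 2, Hsd17b7 was at 11.5, 15.7 and 13.9 CPM in the CTRL libraries and at 48.2, 37.4 and 34.2 CPM in the EXP libraries. On day 4, Hsd17b7 was at 20.9, 18.9, 16.9 and 12.3 CPM in the CTRL libraries and at 28.2, 26.6 and 24.3 CPM in the EXP libraries. The arms did not overlap, and on days 1 and 4 they were separated by under 5 CPM. These values gave log2 fold changes for days 1, 2 and 4 of 0.98 ± 0.19, 1.54 ± 0.24 and 0.61 ± 0.21 (SE; edgeR adjusted p = 8.80e-04, 4.03e-04 and 0.0448). The day 4 call is close to the threshold and was lost with no filter on low counts, with the split covariate, in a fit of day 4 alone and without any 1 of 10 libraries. These were EXP replicate 4 of day 1, CTRL replicates 1 and 3 and EXP replicates 2 and 3 of day 2, and CTRL replicates 2, 3 and 4 and EXP replicates 1 and 2 of day 4.

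The other 5 genes of these steps differed from one another. Nsdhl, a sterol dehydrogenase, had log2 fold changes of 0.29, 1.96 and 1.32, and passed on days 2 and 4 with a mean of 7.31 ± 1.09 CPM in CTRL and 28.3 ± 11.7 CPM in EXP on day 2 (SD). Sc5d, a sterol desaturase, had 0.76, 1.58 and 0.18 and passed on days 1 and 2. Its day 1 call was lost without CTRL replicate 1, and within the high side of the library split. Dhcr7, a reductase of the final steps, had -0.77, 1.502 and 0.97 and did not pass on any day. Its day 2 groups did not overlap (2.04 to 4.18 CPM in CTRL and 6.94 to 10.9 in EXP, edgeR adjusted p = 0.0608), and DESeq2, library totals without TMM, the split covariate and a fit of day 2 alone each called it. Ebp, an isomerase, had 0.29, 0.47 and 0.03, and Tm7sf2, a sterol reductase, had -0.49, 1.02 and 0.43. Neither of them passed on any day. Of the exon bases of Tm7sf2, 12.1% overlap Vps51 on the same strand.

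Every EXP library was above every CTRL library for 10 of the 20 synthesis genes on day 1, 18 on day 2 and 15 on day 4, and for 9 of them on all 3 days. Such separation was found in 11.7%, 20.9% and 13.8% of all genes tested on the 3 days. The share of all genes separated on all 3 days was not counted. The summed level of the 20 synthesis genes was 371 ± 120 CPM in CTRL and 778 ± 134 CPM in EXP on day 1 (SD, n = 4 and 5). It was 245 ± 12.3 and 1068 ± 274 CPM on day 2 (n = 3 and 3) and 376 ± 87.6 and 827 ± 261 CPM on day 4 (n = 4 and 3). The sums did not overlap between the arms on any day. Within day 1 CTRL and day 4 CTRL, the high-side libraries were below the low-side ones. In day 1 CTRL the 3 high-side libraries were at 262 to 383 CPM and the low-side library at 534 CPM, and in day 4 CTRL the 2 high-side libraries were at 307 to 309 CPM and the 2 low-side libraries at 399 to 491 CPM. In day 1 EXP the 2 high-side libraries, at 737 to 740 CPM, lay within the range of the 3 low-side ones (668 to 1012 CPM), and the day 2 CTRL libraries, all low-side, were at 235 to 259 CPM, below every high-side CTRL library. Within the high side on day 1 were 3 CTRL and 2 EXP libraries. There all 15 genes that had been called were higher in EXP, with a median log2 fold change of 1.60, and 13 were called. Within the low side on day 4 were 2 CTRL and 3 EXP libraries. There all 16 called genes were higher, with a median of 1.25 beside 1.65 over all libraries. Of the 16, 0 were called in that fit (edgeR adjusted p = 0.112 to 0.370). In that fit 1 gene of all those tested was called. Day 2 held low-side libraries only. The libraries of both fits were also in the fit that chose these genes, so the shared direction is not independent support.

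**Figure D3:**
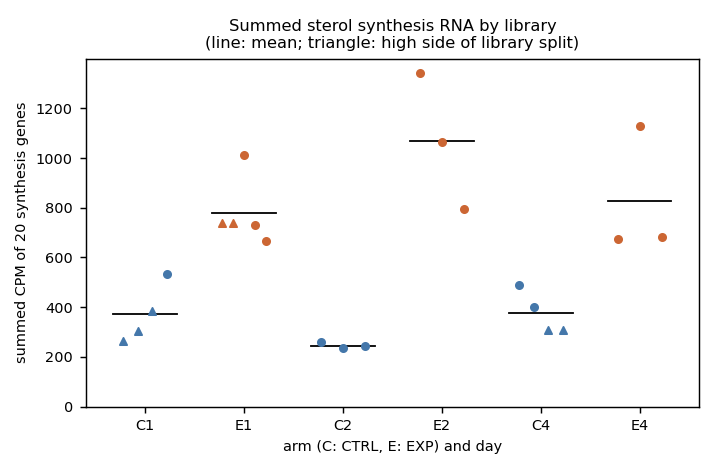
Summed CPM of the 20 synthesis genes in each of the 22 libraries (vertical axis from 0) by arm and day. Points are libraries (blue CTRL, orange EXP, triangles on the high side of the split) and lines are means. The EXP libraries lie between 668 and 1344 CPM and the CTRL libraries between 235 and 534 CPM.

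The 4 genes of SREBP2 control split into those called on days 1 and 2 and those not called. Srebf2, the factor itself, went from 93.3 ± 18.1 to 176 ± 32.3 CPM on day 1 and from 93.2 ± 0.721 to 189.7 ± 35.4 CPM on day 2 between CTRL and EXP (mean ± SD, n = 4 and 5, then 3 and 3). Its log2 fold changes were 0.91 ± 0.18 and 1.03 ± 0.22 (SE; edgeR adjusted p = 8.08e-04 and 0.00411). On day 4 its groups overlapped, with a log2 fold change of 0.26 ± 0.20 (adjusted p = 0.355). Insig1, which holds the SREBP2 complex back and is itself a target of it, showed the same order of days. It ranged over 32.7 to 105 CPM in CTRL and 169 to 213 CPM in EXP on day 1, 66.8 to 89.6 and 187 to 237 CPM on day 2, and 74.2 to 266 and 89.5 to 249.8 CPM on day 4. The arms were apart on days 1 and 2 and overlapped on day 4. In CTRL of that day Insig1 was at 266, 227, 74.2 and 125 CPM, where the lower 2 values are the high-side libraries of the split, whose part was not tested. Log2 fold changes were 1.44 ± 0.36, 1.46 ± 0.43 and -0.06 ± 0.39 (SE; edgeR adjusted p = 0.00508, 0.0283 and 0.935). The day 2 call of Insig1 was lost without any 1 of the 3 CTRL libraries or EXP replicates 1 and 2 and with no filter on low counts. Scap, which carries SREBP2 to the Golgi, had 0.28, 0.46 and 0.44 and Insig2, the relative of Insig1, had -0.25, -0.04 and -0.33. Neither of them passed on any day. For Srebf2 and Insig1, a change of the EXP effect between days did not pass either (edgeR adjusted p = 0.148 and 0.115), so the day 4 values are not shown to differ from the earlier days.

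Among the genes of sterol movement, Stard4 was called higher on every day, and Npc1 and Npc2 on none. Stard4 (ENSMUSG00000024378) carries sterol between membranes in the cytosol. On day 1, Stard4 was at 1.57, 3.13, 4.97 and 10.03 CPM in the CTRL libraries and at 13.8, 18.4, 31.8, 13.3 and 14.9 CPM in the EXP libraries. On day 2, Stard4 was at 1.34, 3.81 and 1.89 CPM in the CTRL libraries and at 22.6, 18.8 and 10.6 CPM in the EXP libraries. On day 4, Stard4 was at 8.75, 5.53, 2.56 and 3.46 CPM in the CTRL libraries and at 12.4, 23.8 and 13.7 CPM in the EXP libraries. The arms did not overlap. The fit gave log2 fold changes for days 1, 2 and 4 of 1.90 ± 0.48, 2.89 ± 0.60 and 1.71 ± 0.51 (SE; edgeR adjusted p = 0.00542, 0.00399 and 0.0227). The day 4 call was lost without EXP replicate 2 or CTRL replicates 3 or 4 of that day and with no filter on low counts. Npc1 and Npc2 pass cholesterol out of the lysosome. Npc1 had log2 fold changes of 0.42, -0.28 and -0.37, and Npc2 of -0.41, -0.35 and -0.17. For Npc2, every EXP library was below every CTRL library on day 2 (355 to 448 and 495 to 535 CPM), at an edgeR adjusted p of 0.340.

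Of the 5 genes of the LXR group, 0 were called higher on any day, and 0, 2 and 1 were called lower on days 1, 2 and 4. Of all genes, 13.9%, 7.72% and 12.8% were called higher and 14.7%, 5.71% and 9.66% lower. With 5 genes, 0 called higher is near those shares. At an unadjusted p under 0.05, 0 of the 5 were higher on each day, and 2, 2 and 1 were lower on days 1, 2 and 4. The share of all genes at that level was not counted. Nr1h2, the LXRβ receptor, was at 60.1 to 67.1 CPM in CTRL and 37.2 to 45.8 CPM in EXP on day 2, and at 49.1 to 61.2 and 30.2 to 45.9 CPM on day 4. The EXP libraries were below the CTRL libraries on both days. Its log2 fold change was -0.61 ± 0.18 on day 2 and -0.54 ± 0.17 on day 4 (SE; edgeR adjusted p = 0.0274 and 0.0286). Mylip, an LXR target that marks lipoprotein receptors for degradation, was at 55.9, 55.8 and 57.3 CPM in CTRL and 22.7, 27.8 and 27.9 CPM in EXP on day 2. Its log2 fold change was -1.11 ± 0.24 on that day (SE; edgeR adjusted p = 0.00438), with -0.15 and -0.41 on days 1 and 4 (adjusted p = 0.582 and 0.188). These falls were not called where libraries were scaled to their totals without TMM. That setting gave Nr1h2 -0.14 and -0.23 on days 2 and 4 and Mylip -0.64 on day 2. It moved the median of all genes to 0.21, 0.49 and 0.36 on days 1, 2 and 4, against 0.02, 0.02 and 0.03. The Nr1h2 calls were also lost with no filter on low counts, and that of day 4 with the split covariate and in a fit of day 4 alone. They were lost too without any 1 of the CTRL libraries or EXP replicates 1 and 2 on day 2, and without CTRL replicate 2 or 4 or EXP replicate 1 or 3 on day 4.

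The exporters and the other LXR receptor were not called on any day. Abca1, which loads cholesterol onto apolipoproteins, was at 127 ± 28.6 CPM in CTRL and 119 ± 22.1 CPM in EXP on day 1, 131 ± 9.30 and 123 ± 21.1 CPM on day 2, and 108 ± 20.5 and 98.3 ± 31.4 CPM on day 4 (mean ± SD). The arms overlapped on every day, with log2 fold changes of -0.09 ± 0.20, -0.10 ± 0.24 and -0.14 ± 0.23 (SE). Abcg1, the other exporter, had 0.51 ± 0.31, -0.26 ± 0.38 and -0.63 ± 0.36, and Nr1h3, the LXRα receptor, had -0.56 ± 0.24, 0.25 ± 0.30 and 0.14 ± 0.28. When 1 library of day 4 was left out, Abcg1 on that day ranged from -1.17 to -0.38 and was called lower in 1 of 7 fits. When 1 library of day 1 was left out, Nr1h3 on that day ranged from -0.74 to -0.40 and was called lower in 1 of 9 fits. The SE leave room for changes, and the values do not show that the genes stayed level.

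**Figure D4:**
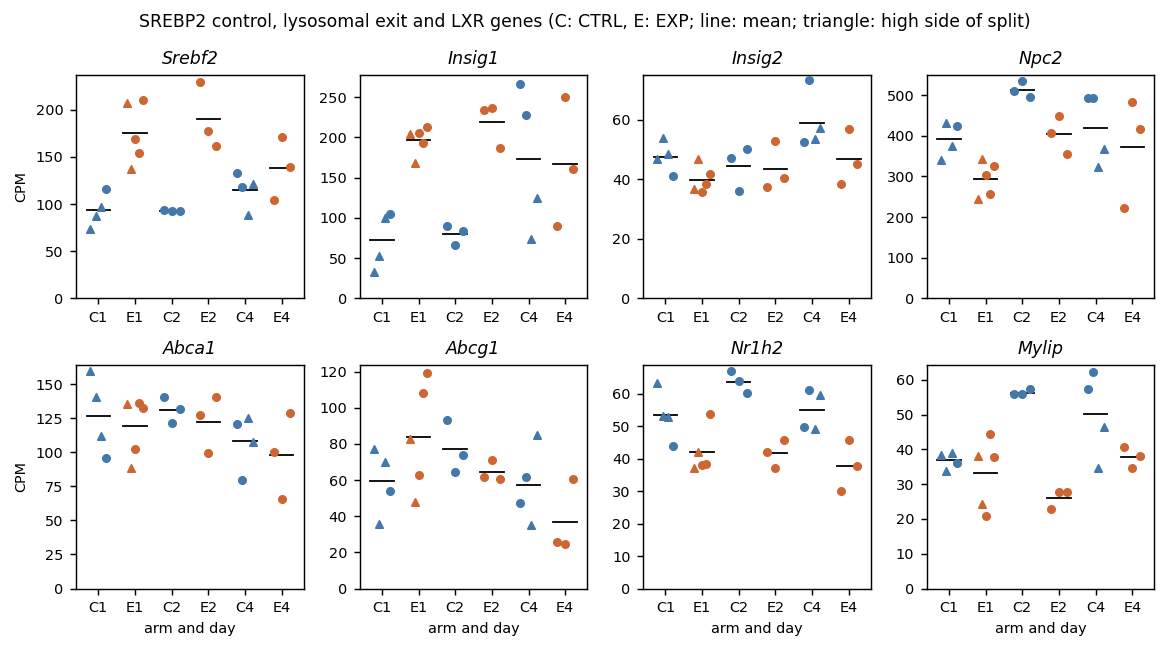
CPM in each of the 22 libraries for 8 genes of SREBP2 control, lysosomal exit and LXR signalling (vertical axes from 0). Blue points are CTRL, orange points are EXP, lines are means and triangles are libraries on the high side of the split. Srebf2 and Insig1 are higher in EXP on days 1 and 2, Abca1 overlaps on every day, and Nr1h2 and Mylip are lower in EXP on day 2 with TMM scaling.

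In RPKM, which is CPM divided by exon length, the members spanned a wide range in day 1 CTRL. The highest were Npc2 at 72.2 ± 7.92 RPKM, Ebp at 33.8 ± 4.46 RPKM and Insig1 at 23.5 ± 11.5 RPKM (mean ± SD, n = 4). The spread of Ebp and Insig1 overlaps, so their order is not shown. The lowest were Fdps at 0.249 ± 0.134, Tm7sf2 at 0.380 ± 0.0966 and Lss at 0.766 ± 0.437 RPKM, in the same scale. In day 2 EXP the highest synthesis genes were Hmgcs1 at 39.2, Ebp at 39.1, Cyp51 at 34.4 and Acat2 at 28.4 RPKM, and in day 2 CTRL the same 4 were at 8.25, 28.3, 4.43 and 5.44 RPKM.

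The EXP effect differed between days for 5 of the 32 members, all in synthesis, where 8.82% of all genes did so. They were Nsdhl (edgeR adjusted p = 0.0229), Lss (0.0246), Mvk (0.0440), Sqle (0.0440) and Cyp51 (0.0478). In each, the effect on day 2 was larger than on day 1, by 1.67 ± 0.39 for Nsdhl, 2.60 ± 0.60 for Lss, 1.65 ± 0.44 for Mvk, 1.93 ± 0.53 for Sqle and 1.41 ± 0.43 for Cyp51 on the log2 scale (SE). For Nsdhl, Lss and Mvk this step was itself called (edgeR adjusted p = 0.0255, 0.0233 and 0.0441). Of all genes, 2.48% were called with a larger effect on day 2 than on day 1. The step from day 2 to day 4 was called for 0 of the 32, and 14 passed at an unadjusted p under 0.05. Of these 14, 13 had a lower log2 fold change on day 4 than on day 2, and 1 a higher one. The share of all genes for this step was not counted. The larger day 2 effect had CTRL levels below those of day 1 as well as EXP levels above them. For Lss, CTRL changed by -1.73 ± 0.46 and EXP by 0.87 ± 0.39 from day 1 to day 2, and for Sqle by -1.40 ± 0.40 and 0.53 ± 0.36 (SE), and none of these steps was called on its own (edgeR adjusted p = 0.100, 0.225, 0.129 and 0.459). The count of 5 depended on single libraries. It was 0 without CTRL replicate 3 or EXP replicate 1 of day 2, 1 without EXP replicate 1 of day 1 or CTRL replicate 1 of day 2, and 8 without EXP replicate 3 of day 4. It was 2 without CTRL replicate 3 or EXP replicate 5 of day 1, CTRL replicate 2 or EXP replicate 2 of day 2, or CTRL replicate 2 or EXP replicate 1 of day 4. It was 3 without EXP replicate 2 or 4 of day 1 or CTRL replicate 4 of day 4.

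Within an arm, over the days, Mvk was the only member called in EXP (edgeR adjusted p = 0.0486), where 14.3% of all genes changed. Its EXP means were 9.60 ± 3.32, 19.7 ± 3.58 and 14.6 ± 4.19 CPM on days 1, 2 and 4 (SD). No member was called in CTRL, where 0.291% of all genes changed. There 15 of 32 passed at an unadjusted p under 0.05, a level whose share of all genes was not counted. DESeq2 called 4 of 32 in CTRL, beside 519 of 16185 genes, and 4 of 32 in EXP, beside 3551 of 17547 genes. The EXP count of 1 was 0 without any 1 of 13 libraries, 2 without CTRL replicate 4 or EXP replicate 3 of day 1 or CTRL replicate 1 of day 4, and 3 without EXP replicate 3 of day 4. The 13 were CTRL replicates 1 to 3 and EXP replicate 5 of day 1, all 6 libraries of day 2, and CTRL replicates 2 and 3 and EXP replicate 2 of day 4.

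A further 55 genes of the pathway were counted from lists, of which 52 were tested. On day 1, 6 (11.5%) were called higher and 10 (19.2%) lower, beside 13.9% and 14.7% of all genes. On day 2, 10 (19.2%) were higher and 5 (9.62%) lower, beside 7.72% and 5.71%. On day 4, 8 (15.4%) were higher and 11 (21.2%) lower, beside 12.8% and 9.66%. The lists below hold 3 to 10 tested genes each, and their counts stand against the same shares of all genes. In the list of genes accessory to sterol synthesis, 1 of 5 tested was higher on day 1, 3 on day 2 and 1 on day 4, and 1 was lower on day 4. Erg28, a scaffold of the demethylation enzymes, had 0.53, 2.27 and 1.26 and passed on days 2 and 4, and Lbr, a sterol reductase of the nuclear membrane, had 0.79, 1.19 and 0.44 and passed on days 1 and 2. In the list of SREBP processing and sterol-regulated degradation, 0, 1 and 2 of 10 were higher and 2, 1 and 3 lower on the 3 days. Mbtps1, the protease that makes the first cut of SREBP2, was lower on each day, from 251 ± 26.1 to 128 ± 15.9 CPM on day 1 (mean ± SD; log2 fold change -0.97 ± 0.14, SE; edgeR adjusted p = 4.91e-05). Its log2 fold changes were -0.83 and -0.68 on days 2 and 4. Erlin1, which binds the complex of SREBP, Scap and Insig, rose on days 2 and 4 (0.97 and 0.65).

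In the list of lipoprotein uptake, 2, 2 and 1 of 6 were higher and 1, 2 and 2 lower on days 1, 2 and 4. Scarb1, the receptor for high-density lipoprotein, was at 16.2 ± 3.52 CPM in CTRL and 38.8 ± 4.82 CPM in EXP on day 1, 7.60 ± 0.531 and 56.1 ± 19.6 on day 2, and 10.4 ± 2.25 and 35.4 ± 1.59 on day 4 (mean ± SD). Its fit gave log2 fold changes for days 1, 2 and 4 of 1.26 ± 0.19, 2.88 ± 0.24 and 1.76 ± 0.21 (SE; edgeR adjusted p = 7.94e-05, 6.82e-07 and 8.78e-05). Lrpap1, a chaperone of lipoprotein receptors, was lower on each day (-0.38, -0.59 and -0.51). Lrp8 had 4.35, 2.49 and 2.01 and passed on days 1 and 2, from a mean of 0.140 ± 0.100 CPM in day 1 CTRL, a level near 3 counts a library, so its fold is imprecise.

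Enzymes that make or clear oxysterols, the ligands of LXR, moved apart, with 2, 2 and 1 of 4 higher and 1, 1 and 1 lower on the 3 days. Ch25h was called higher on each day (2.58, 3.94 and 2.86), at 0.459 ± 0.215 CPM in CTRL and 7.08 ± 4.61 CPM in EXP on day 2 (SD). Its raw counts on day 4 were 440, 74 and 18 in EXP and 23, 16, 20 and 3 in CTRL. The arms overlapped on that day, and EXP replicate 1 held most of the EXP counts, so that fold is imprecise. Cyp27a1 was lower on each day (-1.77, -2.49 and -2.23), at 67.5 ± 13.3 CPM in CTRL and 12.004 ± 5.80 CPM in EXP on day 2 (SD). Cyp7b1, which breaks oxysterols down, was higher on days 1 and 2 (2.28 and 2.16), with 0.55 on day 4. In the other lists, esterification and ester hydrolysis had 1 of 5 higher on day 2 and 1 higher and 2 lower on day 4, and the one higher on both days was Soat1 (1.17 and 1.35), which makes cholesteryl esters. Other LXR targets had 2 of 3 tested lower on day 1 and 1 higher on days 2 and 4, which was Lpcat3 (0.86 and 0.83), a phospholipid-remodelling enzyme. The list of lysosomal release and intracellular transfer had 2 of 9 lower on day 1, 0 called on day 2, and 1 higher and 2 lower on day 4. Isoprenoid branches had 1 of 10 higher and 2 lower on day 1 and 1 lower on day 2. Dhdds, of dolichol synthesis, was lower on days 1 and 2 (-0.82 and -0.62).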

How the data were processed

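The values are raw counts of reads in each gene, as the authors deposited them in 1 table. Its columns are the 22 libraries, and 0 columns lack a sample. The labels name ultra-low-input paired-end sequencing, and the submitters' processing notes name Trimmomatic and mm39. The aligner, counter, annotation release and strandedness are not given in the sources used here. Genes were named with GENCODE M21, which gave 52081 of 55414 identifiers a symbol. In M21, 12 of the 32 members share exon bases with another gene, and their counts are uncertain.

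edgeR 4.0.16 was run in R 4.3.3. Its filterByExpr (minimum count 10) left 17554 genes, all 32 members among them, and TMM set the scaling. A robust quasi-likelihood model with 1 mean per group over all 22 libraries left 16 residual degrees of freedom. P-values were adjusted by Benjamini-Hochberg over all genes within each contrast. RPKM used the union exon length of M21. In a simulated day 1 comparison of 17554 genes, 40% of genes changed 2-fold and 87% changed 4-fold were recovered, with 8 false calls of 135. There 200 genes with a mean above 1 CPM were changed, while 5017 genes were called in the real day 1 comparison. The adjustment of p-values depends on how many genes change, so these rates do not carry over to the data. Replicate pairs differed by chi-square per degree of freedom of 25.5 to 423 (31 pairs), so each was kept as its own library. Members, gene lists and the order of naming were chosen with earlier results of these data known. All 32 members are named by role. Per-library values are given for those called on all 3 days, at most 4 a role by highest mean CPM, and at most 3 genes are named from each other list. DESeq2 1.42.0, other scalings, no filter, a replicate block, the library split and leaving out each library were tried as alternatives.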

Additional observations from a re-analysis of the deposited data

Results flagged for a closer look

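Of 96 sets of values (1 gene in 1 group), 6 had a library distant from its fellows, where chance gives about 4.8. The 96 sets do not cover all 32 members in all 6 groups. Those flagged were from CTRL and EXP of day 1 and CTRL of day 4, so day 2 and EXP of day 4 are not shown to be free of distant libraries. CTRL replicate 4 of day 1, the only low-side CTRL library of that day, was at 13.7 CPM for Mvk (6.18 to 7.04 in the other 3), 15.2 CPM for Lss (5.38 to 7.05) and 19.2 CPM for Hsd17b7 (10.2 to 11.6). EXP replicate 3 of day 1 was at 121.9 CPM for Cyp51 (90.6 to 94.2 in the other 4) and 31.8 CPM for Stard4 (13.3 to 18.4). CTRL replicate 4 of day 4 was at 3.11 CPM for Fdft1 (8.63 to 9.18 in the other 3).

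The EXP effect differed between days in the joint edgeR test for Mvk (adjusted p = 0.0440), Sqle (0.0440), Lss (0.0246), Cyp51 (0.0478) and Nsdhl (0.0229), with the day 2 effect above that of day 1 in each.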

How the results depend on the processing

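No called result changed direction under the alternatives tried. Members called higher stayed within 12 to 16 on day 1, 17 to 20 on day 2 and 10 to 17 on day 4 when 1 library was left out (15, 19 and 16 with all), and those lower within 0 to 1, 1 to 2 and 0 to 1. On day 4, 10 were called higher without EXP replicate 2 and 0 among the low-side libraries alone. On day 1, the replicate block called 1 lower (Nr1h2), as did the split covariate (1, Dhcr7). Without 1 of CTRL replicate 4, EXP replicate 2 or EXP replicate 5 of day 1, or EXP replicate 1 of day 4, 1 was lower as well. On day 2, 0 were lower with library totals, 1 with no filter and 1 at an absolute log2 fold change of at least 1. On day 4, 0 were lower with library totals, no filter, the replicate block, the split covariate, day 4 alone, the low side alone and an absolute log2 fold change of at least 1.

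Members whose effect depended on the day (5) numbered 10 with DESeq2, 10 with library totals and 2 with no filter. They numbered 13 with the split covariate, 1 with the replicate block, and 0 to 8 when 1 library was left out. Over all genes this test called 1549 of 17554, with 2606 of 17547 in DESeq2 and 1662 of 17554 with library totals. It called 1110 of 33490 with no filter, 1811 of 17554 with the split covariate and 401 of 17554 with the replicate block. Over days within EXP (1), 4 were called with DESeq2, 0 with DESeq2 size factors, 2 with library totals and 0 to 3 with 1 library left out. Within CTRL (0), 4 were called with DESeq2 and 0 to 0 with 1 library left out. Of all genes, DESeq2 called 3551 of 17547 within EXP and 519 of 16185 within CTRL. The causes were not tested.

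With library totals, 66.2%, 90.5% and 80.7% of all calls were higher in EXP on days 1, 2 and 4, against 48.7%, 57.5% and 57% with TMM. Same-numbered libraries were to count as pairs on a day where the deviations of every pair correlated above 0.1. That held for 1 of 4 pairs on day 1 (-0.0664 to 0.164), 0 of 3 on day 2 (-0.0623 to -0.00327) and 2 of 3 on day 4 (0.0795 to 0.146), so they were not treated as pairs. All 3 pairs of day 4 were positive and all 6 of those libraries correlated best with their own number, against 3 of 8 on day 1 and 0 of 6 on day 2, a hint from the data and not from the design. With the replicate block within day, 16, 19 and 12 members were called higher. It ended the day 4 calls of Hmgcs1, Idi1, Hsd17b7, Stard4 and Nr1h2 and the day 2 call of Insig1, and added those of Dhcr7 on day 2 and of Pmvk (higher) and Nr1h2 (lower) on day 1. That block could not be fitted for changes over days within an arm. In the simulated day 1 comparison (4 against 5 libraries), 40% of 2-fold changes were recovered, and days 2 and 4 were not simulated. With 200 changed genes beside 5017 called in the data, that rate does not carry over to them.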
